A study of Homo sapiens with 14 samples.

Results

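The immunoproteasome and peptide loading genes described here are PSMB8, PSMB9, PSMB10, PSME1, PSME2, TAP1, TAP2, TAPBP and TAPBPL, 9 of the 35805 gene rows of the deposited table. They were taken by symbol as a group of known function. The rule that finds them uses no measured value, but the group was chosen with earlier results of these data known. Counts of called members therefore describe the group and carry no test. All 9 were found, and all 9 were among the 16433 genes with at least 1 group mean above 0 on the log2 scale.

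The proteasome is the protease that cuts cytosolic proteins into peptides. In cells exposed to interferon, its catalytic subunits PSMB5, PSMB6 and PSMB7 are replaced in new particles by PSMB8, PSMB9 and PSMB10, which favours peptides that fit MHC class I molecules. PSME1 and PSME2 form the PA28 cap that opens the particle, TAP1 and TAP2 form the pump that carries peptides into the endoplasmic reticulum, and tapasin (TAPBP) and the tapasin-related protein TAPBPR (TAPBPL) help load and edit the peptides on class I molecules.

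Total RNA was sequenced from K562, an established human chronic myeloid leukaemia line, carrying dCas9-KRAB, a catalytically dead Cas9 joined to a repressor domain that silences a gene at its promoter. The groups were cells with guides against TASOR (2 libraries, 2 guides), TASOR2 (3 libraries, 3 guides), MPP8 (2 libraries, 2 guides) and PPHLN1 (2 libraries, 2 guides; its protein is Periphilin), untransduced dCas9-KRAB cells (2 libraries) and the negative control, cells with 1 guide that targets AAVS1 (3 libraries, named sgAAVS1). RNA was taken 7 days after transduction, and neither the promoter that drives dCas9-KRAB nor whether the cells are 1 clone is given in the sources used here. TASOR is the scaffold of HUSH and TASOR2 that of HUSH2, silencing complexes on chromatin that share MPP8 and Periphilin, and the study asked what their loss does to the transcriptome.

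Each value is the authors' mean log2 level of a group, in a unit close to RPM (reads scaled to a common library depth), and no value per library was analysed here (the TASOR2 mean holds 2 of its 3 libraries), so no SD, n or p-value can be given and the spread between guides is unknown. A log2 difference is printed with ± and the half-width of its 95% interval from Poisson counting of reads, which leaves out every other source of spread. To be called, a gene had to differ by 1 or more in log2 units, reach a mean over 0 in the higher group and have an interval free of 0. Mean depth was 5857938 to 7406967 reads per library. The guides acted on their targets: TASOR (listed as FAM208A) had 6.56% of its sgAAVS1 level left in its knockdown, TASOR2 (FAM208B) 37.5%, MPP8 (MPHOSPH8) 28.2% and PPHLN1 40.8%. All 9 K562 markers examined had a log2 mean above 0 in every group. Across all tested genes the median difference from sgAAVS1 was 0.16 in TASOR, 0.07 in TASOR2, 0.12 in MPP8, 0.17 in PPHLN1 and 0.05 in untransduced cells, so small differences are also given after subtracting that median.

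PSMB8, PSMB9 and TAP1 rose in the TASOR2, MPP8 and PPHLN1 knockdowns, and TAPBPL rose in the MPP8 and PPHLN1 knockdowns. No member was called in the TASOR knockdown, the one whose target was reduced furthest. In TASOR2 cells 3 of the 9 members were called higher than in sgAAVS1 cells, where 2.13% of all tested genes were. The count was 4 of 9 in MPP8 cells, against 1.57% of all tested genes, and 4 of 9 in PPHLN1 cells, against 2.76%. It was 0 of 9 in TASOR cells, where 1.86% of tested genes were called higher, and 0 of 9 in untransduced cells, where 1.31% were. No member was called lower; the share of all tested genes called lower was 0.31% in TASOR, 1.98% in TASOR2, 0.268% in MPP8, 0.596% in PPHLN1 and 0.219% in untransduced cells. The same members were called when untransduced cells took the place of sgAAVS1, where 1.17% of all tested genes were higher in TASOR, 1.28% in TASOR2, 1.16% in MPP8 and 1.52% in PPHLN1 cells. Since cells were measured in bulk, a larger share of responding cells and more RNA per cell cannot be told apart.

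**Figure D1:**
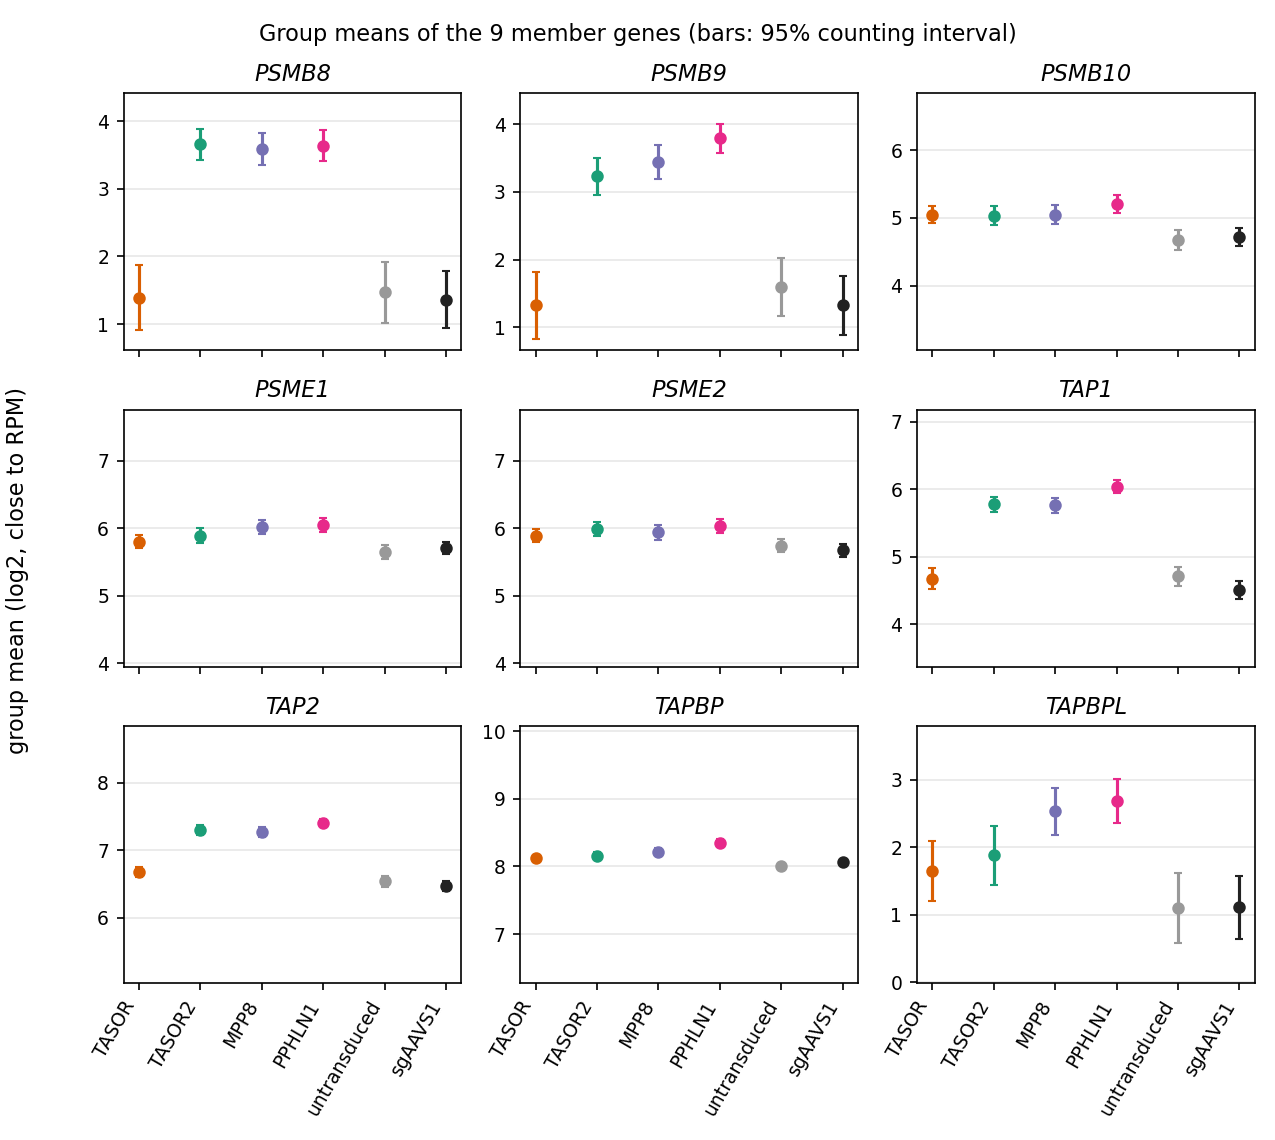
Mean log2 level (y axis, close to RPM) of each of the 9 genes in the 4 knockdowns, untransduced cells and sgAAVS1 cells (x axis). Points are the authors' group means, bars the 95% counting interval, and every panel spans the same height. PSMB8, PSMB9, TAP1 and TAP2 form 2 levels, a high one in TASOR2, MPP8 and PPHLN1 cells and a low one in TASOR, untransduced and sgAAVS1 cells.

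These genes are known targets of interferon, which acts through a GAAANNGAAA core (the interferon response element) and a TTCNNNGAA core (the gamma-activated site). Both were searched on both strands in promoter windows of 250 bases before to 50 bases after each start in RefSeq (GRCh38.p14). GAAANNGAAA was found in 7 of the 9 members and in 4.38% of all 27305 genes with a window. PSMB9 and TAPBPL had no match in their windows. The sequences are shown because this core is what most members share outside their function. Of the members called in a knockdown, PSMB8 and TAP1 hold it and PSMB9 and TAPBPL do not. PSMB10, PSME1, PSME2, TAP2 and TAPBP hold it and were not called. Any link between the core and the differences was not tested. Each is given 5′ to 3′ on the gene's strand with the match in capitals, and TTTCNNTTTC is the same core read on the other strand.
PSMB8, chr6:32844032-32844061 (-): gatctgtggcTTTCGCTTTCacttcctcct
PSMB10, chr16:67936852-67936881 (-): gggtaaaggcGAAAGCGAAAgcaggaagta
PSME1, chr14:24136189-24136218 (+): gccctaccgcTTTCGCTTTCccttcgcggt
PSME2, chr14:24146619-24146648 (-): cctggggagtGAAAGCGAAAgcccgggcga
TAP1, chr6:32853813-32853848 (-): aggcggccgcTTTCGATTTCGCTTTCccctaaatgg
TAP2, chr6:32838778-32838807 (-): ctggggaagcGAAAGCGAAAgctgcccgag
TAPBP, chr6:33314073-33314108 (-): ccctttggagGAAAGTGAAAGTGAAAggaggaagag
In PSMB8, PSMB10, PSME1, PSME2 and TAP2 the match reads GAAAGCGAAA on 1 of the strands. TAP1 and TAPBP each held 2 overlapping matches. The match began 134 bases before the upstream of the 2 TAP1 starts and 4 before the downstream of the 2 PSMB8 starts. It began 58 bases before the start of TAP2, 28 before that of PSME2, 21 before that of PSMB10 and 20 before that of TAPBP. In PSME1 it began at base 6 after the start. TTCNNNGAA was found in windows of PSMB8 and TAP1, and in 9.38% of all genes with a window. In TAP1 it lay only in the window of the downstream start, which held no match to the other core.

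**Figure D2:**
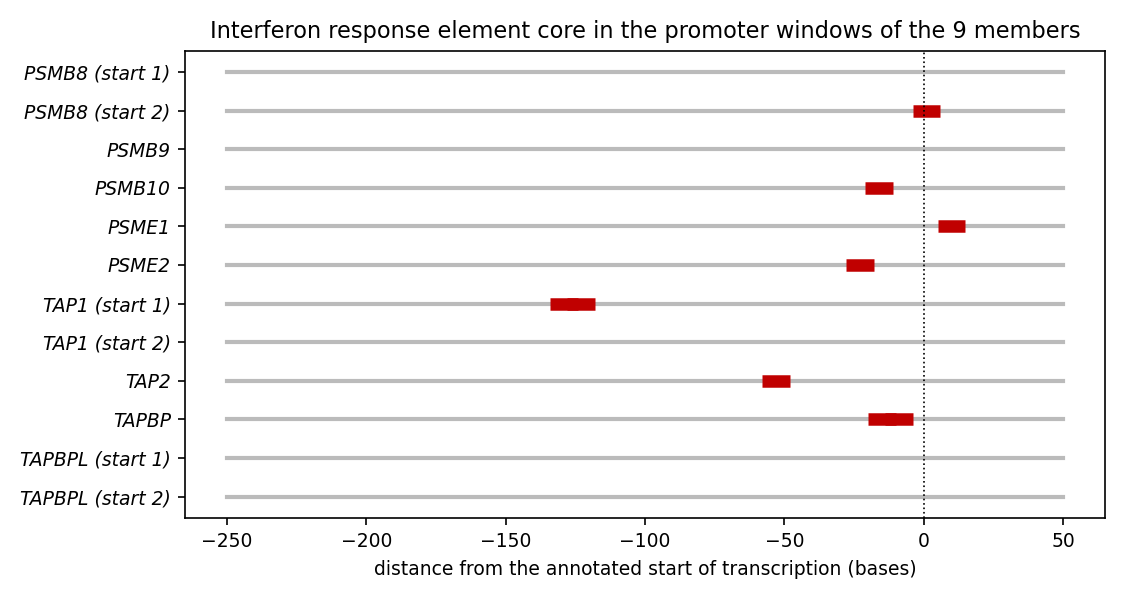
Promoter windows of the 9 genes as grey lines, 1 for each annotated start, with distance from the start of transcription in bases on the x axis and matches to the interferon response element core in red. The matches lie between 134 bases before and 15 bases after a start, and the windows of PSMB9 and TAPBPL hold none.

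TAP1, from its upstream start, and PSMB9 are transcribed away from each other from starts 488 bases apart, so their promoters share the stretch between them. The 250 bases before each start follow, with the core in capitals.
TAP1, chr6:32853705-32853954 (-): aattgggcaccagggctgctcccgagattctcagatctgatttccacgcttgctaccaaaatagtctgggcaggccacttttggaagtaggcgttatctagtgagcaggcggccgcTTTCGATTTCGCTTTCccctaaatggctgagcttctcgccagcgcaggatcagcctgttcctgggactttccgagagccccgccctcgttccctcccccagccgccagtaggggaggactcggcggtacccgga
PSMB9, chr6:32853942-32854191 (+): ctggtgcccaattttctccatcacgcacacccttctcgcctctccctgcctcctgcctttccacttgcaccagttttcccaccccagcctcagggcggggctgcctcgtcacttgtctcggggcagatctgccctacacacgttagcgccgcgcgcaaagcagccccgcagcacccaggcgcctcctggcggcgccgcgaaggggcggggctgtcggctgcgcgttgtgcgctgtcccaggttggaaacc
The matches in the TAP1 window begin 354 and 360 bases from the PSMB9 start, outside the PSMB9 window. These matches describe the letters only, and no binding was measured.

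The catalytic subunits differed among themselves. PSMB8 (LMP7, the subunit that takes the place of PSMB5) had a log2 mean of 1.39 in TASOR, 3.66 in TASOR2, 3.59 in MPP8 and 3.64 in PPHLN1 cells, against 1.47 in untransduced and 1.36 in sgAAVS1 cells. Its level was high in TASOR2, MPP8 and PPHLN1 cells and low in the other 3 groups, with no overlap of the counting intervals. Behind these means stand about 18.7, 74.5, 71.8, 75.0, 21.0 and 16.4 reads per library in the same order of groups. Relative to sgAAVS1, PSMB8 was 4.92-fold higher in TASOR2 cells (log2 difference 2.30 ± 0.48), 4.69-fold higher in MPP8 cells (2.23 ± 0.49) and 4.87-fold higher in PPHLN1 cells (2.28 ± 0.48). These differences ranked 35, 36 and 63 from the top among the 16433 tested genes. In TASOR cells the difference was 0.03 ± 0.64. The intervals between the 3 raised groups included 0: MPP8 minus TASOR2 was -0.07 ± 0.33, PPHLN1 minus TASOR2 was -0.02 ± 0.33 and PPHLN1 minus MPP8 was 0.05 ± 0.33.

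PSMB9 (LMP2, in the place of PSMB6) had a log2 mean of 1.32 in TASOR, 3.23 in TASOR2, 3.44 in MPP8 and 3.79 in PPHLN1 cells, against 1.59 in untransduced and 1.32 in sgAAVS1 cells. The same 3 groups were high, and the counting intervals of the high and low groups did not overlap. The difference from sgAAVS1 was 1.91 ± 0.51 in TASOR2 cells (3.76-fold), 2.12 ± 0.50 in MPP8 cells (4.35-fold) and 2.47 ± 0.48 in PPHLN1 cells (5.55-fold). PPHLN1 cells stood above TASOR2 cells by 0.56 ± 0.35 and above MPP8 cells by 0.35 ± 0.33. After subtracting the all-gene median these are 0.45 and 0.30, and the interval of the second then includes 0. MPP8 and TASOR2 differed by 0.21 ± 0.37.

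PSMB10 (MECL-1, in the place of PSMB7), whose gene lies on chromosome 16 and not in the MHC, was not called in any knockdown. Its log2 mean was 5.05 in TASOR, 5.03 in TASOR2, 5.05 in MPP8 and 5.21 in PPHLN1 cells, against 4.67 in untransduced and 4.72 in sgAAVS1 cells. All 4 knockdowns lay above both controls, TASOR included. The difference from sgAAVS1 was 0.33 ± 0.18 in TASOR, 0.31 ± 0.19 in TASOR2, 0.33 ± 0.19 in MPP8 and 0.49 ± 0.19 in PPHLN1 cells, or 0.16, 0.25, 0.21 and 0.32 after subtracting the all-gene median. Its interval against TASOR included 0 for TASOR2 (-0.01 ± 0.20), MPP8 (0.01 ± 0.19) and PPHLN1 (0.17 ± 0.19).

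Set against the constitutive subunit each one replaces, and per kilobase of merged exon, PSMB8 reached 8.77% of the PSMB5 level in TASOR2 cells, 7.67% in MPP8 cells and 7.76% in PPHLN1 cells. It was 1.73% in TASOR, 2.01% in untransduced and 1.82% in sgAAVS1 cells. PSMB9 was 8.99%, 10.1% and 12.7% of the PSMB6 level in TASOR2, MPP8 and PPHLN1 cells, with 2.43% in TASOR, 3.38% in untransduced and 2.56% in sgAAVS1 cells. PSMB10 was 34.3% to 40.3% of the PSMB7 level in the 4 knockdowns, 32.3% in untransduced and 30.4% in sgAAVS1 cells. At the RNA level the constitutive subunit therefore exceeded its counterpart in every group, on this scale. The constitutive genes themselves moved little: PSMB5 differed from sgAAVS1 by 0.10 ± 0.11, 0.03 ± 0.11, 0.15 ± 0.11 and 0.19 ± 0.11 in TASOR, TASOR2, MPP8 and PPHLN1 cells. PSMB6 lay between 5.60 and 5.69 in the knockdowns and PSMB7 between 6.33 and 6.54, against sgAAVS1 means of 5.52 and 6.38.

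The genes of the PA28 cap, PSME1 and PSME2, were not called. PSME1 had a log2 mean of 5.80 in TASOR, 5.89 in TASOR2, 6.02 in MPP8 and 6.05 in PPHLN1 cells, against 5.65 in untransduced and 5.71 in sgAAVS1 cells. Its difference from sgAAVS1 was 0.09 ± 0.14, 0.18 ± 0.14, 0.30 ± 0.14 and 0.33 ± 0.14 in the 4 knockdowns in that order, which is -0.08, 0.11, 0.18 and 0.16 relative to all tested genes. PSME2 had a log2 mean of 5.89 in TASOR, 5.99 in TASOR2, 5.94 in MPP8 and 6.03 in PPHLN1 cells, against 5.74 in untransduced and 5.67 in sgAAVS1 cells. Its difference from sgAAVS1 was 0.23 ± 0.13, 0.33 ± 0.14, 0.27 ± 0.14 and 0.37 ± 0.14 in the 4 knockdowns, or 0.06, 0.26, 0.15 and 0.19 after subtracting the all-gene median.

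Among the transporter genes, TAP1 had a log2 mean of 4.68 in TASOR, 5.78 in TASOR2, 5.76 in MPP8 and 6.04 in PPHLN1 cells, against 4.71 in untransduced and 4.51 in sgAAVS1 cells. With 142 to 394 reads per library it was measured more finely than PSMB8 or PSMB9. It rose by 1.27 ± 0.18 in TASOR2 cells (2.41-fold), by 1.25 ± 0.18 in MPP8 cells (2.37-fold) and by 1.53 ± 0.17 in PPHLN1 cells (2.89-fold), and differed by 0.17 ± 0.20 in TASOR cells. PPHLN1 cells were above TASOR2 cells by 0.26 ± 0.15 and above MPP8 cells by 0.29 ± 0.15. After subtracting the all-gene median these are 0.15 and 0.23, and the interval against TASOR2 then includes 0.

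TAP2, the partner of TAP1 in the pump, had a log2 mean of 6.68 in TASOR, 7.30 in TASOR2, 7.27 in MPP8 and 7.40 in PPHLN1 cells, against 6.54 in untransduced and 6.47 in sgAAVS1 cells. It was highest in PPHLN1, TASOR2 and MPP8 cells, as TAP1 was, and stayed under the size threshold. The difference was 0.21 ± 0.10 in TASOR, 0.83 ± 0.10 in TASOR2, 0.81 ± 0.10 in MPP8 and 0.93 ± 0.09 in PPHLN1 cells, or 1.16-fold, 1.78-fold, 1.75-fold and 1.91-fold. Relative to all tested genes the differences were 0.05, 0.77, 0.69 and 0.76. The span of the TAP2 row reaches past the TAP2 gene of GENCODE 29 into HLA-DOB, which had a log2 mean of 1.84, 2.03, 2.66 and 2.70 in the 4 knockdowns and 1.83 and 1.97 in untransduced and sgAAVS1 cells. Any share of HLA-DOB reads in the TAP2 value was not tested.

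Of the loading factors, TAPBP had the narrowest span of all members, 0.35 log2 units over the 6 groups. Its log2 mean was 8.12 in TASOR, 8.16 in TASOR2, 8.22 in MPP8 and 8.35 in PPHLN1 cells, against 8.00 in untransduced and 8.06 in sgAAVS1 cells. Relative to all tested genes its difference from sgAAVS1 was -0.11, 0.03, 0.04 and 0.11 in the 4 knockdowns. TAPBPL had a log2 mean of 1.65 in TASOR, 1.88 in TASOR2, 2.53 in MPP8 and 2.68 in PPHLN1 cells, against 1.10 in untransduced and 1.11 in sgAAVS1 cells. It rose by 1.42 ± 0.58 in MPP8 cells (2.68-fold) and by 1.57 ± 0.57 in PPHLN1 cells (2.97-fold), and differed by 0.77 ± 0.64 in TASOR2 and by 0.54 ± 0.64 in TASOR cells. The TASOR2 level of TAPBPL was under those of MPP8 (MPP8 minus TASOR2 0.65 ± 0.56) and PPHLN1 cells (PPHLN1 minus TASOR2 0.80 ± 0.55), and its interval against TASOR included 0 (0.23 ± 0.62). Only 13.9 to 38.7 reads per library stand behind TAPBPL. Its exons overlap those of VAMP1 on the other strand over 339 bases, 10.6% of its exon length.

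**Figure D3:**
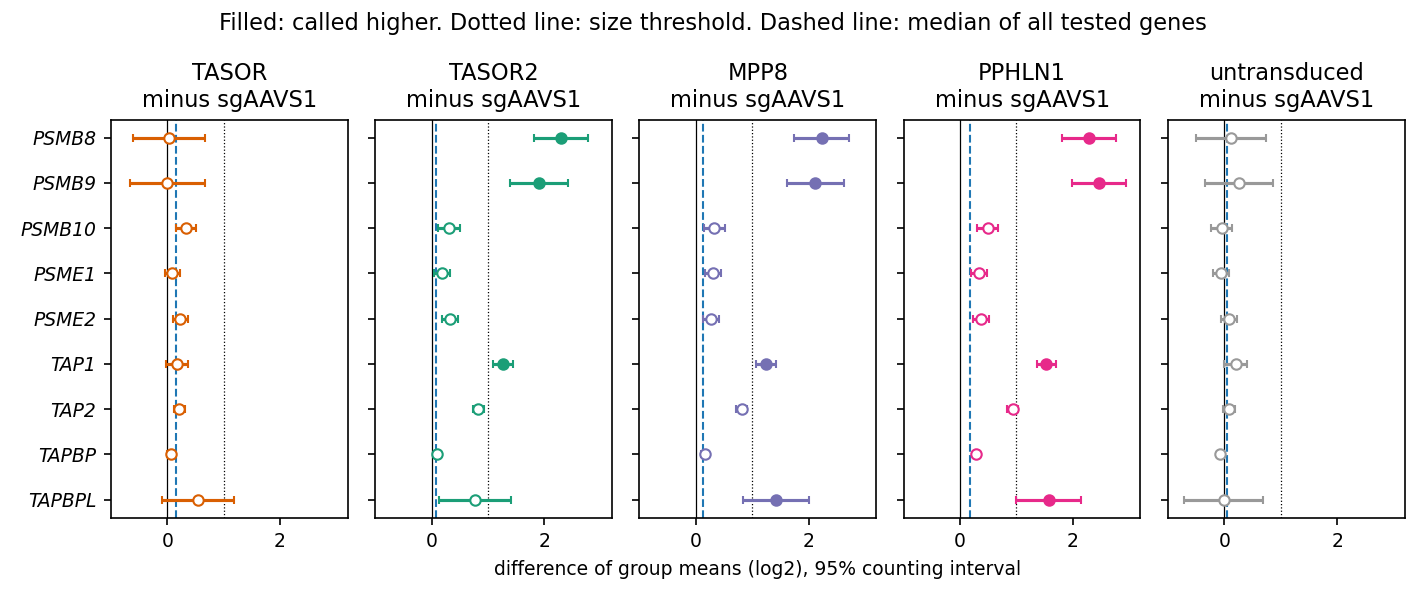
Log2 difference of each of the 9 genes from sgAAVS1 (x axis) in the 4 knockdowns and in untransduced cells, with 95% counting intervals. Filled points were called higher, the dotted line is the size threshold of 1, and the dashed line is the median of all tested genes. The called genes are PSMB8, PSMB9 and TAP1 in TASOR2, MPP8 and PPHLN1 cells and TAPBPL in MPP8 and PPHLN1 cells.

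Taken as a list, the 9 members had a median difference from sgAAVS1 of 0.17 in TASOR, 0.77 in TASOR2, 0.81 in MPP8 and 0.93 in PPHLN1 cells, and of 0.08 in untransduced cells. After subtracting the all-gene median these are 0.00, 0.70, 0.69 and 0.76, and 0.03. The counting interval lay above 0 for all 9 members in TASOR2, in MPP8 and in PPHLN1 cells, where it did so for 35.0%, 40.3% and 56.1% of all tested genes. In TASOR cells it lay above 0 for 3 members (PSMB10, PSME2 and TAP2), against 51.0% of all tested genes. In untransduced cells it lay above 0 for no member, against 21.8% of all tested genes, and TAPBP was below 0 by a small amount (-0.07 ± 0.06). After subtracting the all-gene median the interval lay above 0 for 0 members in TASOR, 7 in TASOR2 (not PSME1 and TAPBP), 8 in MPP8 (not TAPBP), 9 in PPHLN1 and 0 in untransduced cells. The share of all tested genes was then highest in TASOR2 (27.1%) and lowest in MPP8 cells (9.01%).

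The TASOR2, MPP8 and PPHLN1 knockdowns were also set directly against the TASOR knockdown. PSMB8, PSMB9 and TAP1 were higher than in TASOR cells in all 3. TASOR2 cells had 3 of 9 members called higher than TASOR cells, where 1.31% of tested genes were. MPP8 cells had 3 of 9, against 0.761%, and PPHLN1 cells had 4 of 9 with TAPBPL, against 1.33%. The TAPBPL difference of 1.03 ± 0.55 was close to the threshold, and its call was lost with a pseudocount of 1 (0.84) and with the GC trend removed (0.99). None was lower, where 5.11% of tested genes were in TASOR2, 1.0% in MPP8 and 0.943% in PPHLN1 cells. PSMB8 differed from its TASOR level by 2.27 ± 0.54 in TASOR2, 2.20 ± 0.54 in MPP8 and 2.25 ± 0.54 in PPHLN1 cells. PSMB9 differed by 1.92 ± 0.57, 2.12 ± 0.56 and 2.48 ± 0.54 in the same order, and TAP1 by 1.10 ± 0.19, 1.08 ± 0.19 and 1.36 ± 0.18. TAP2, under the threshold, differed by 0.62 ± 0.10, 0.59 ± 0.10 and 0.72 ± 0.10. These 3 comparisons share the TASOR mean, as the comparisons with sgAAVS1 share that control.

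Members of the MHC region lie close together. On hg38, TAP2 (chr6:32813767-32838822, - strand), PSMB8 (chr6:32840717-32844703, -), PSMB9 (chr6:32844136-32859585, +) and TAP1 (chr6:32845209-32853978, -) are neighbours, and the other MHC member, TAPBP, is at chr6:33299694-33314387 (-). TAPBPL is at chr12:6451690-6466517 (+), PSME1 at chr14:24136158-24138967 (+), PSME2 at chr14:24143362-24147570 (-) and PSMB10 at chr16:67934502-67937087 (-). Of the 4 neighbours, 3 were called in TASOR2, MPP8 and PPHLN1 cells, and of the 5 members elsewhere TAPBPL alone, in MPP8 and PPHLN1 cells. Of all tested genes, 0.462% were called higher in all 3 of these knockdowns, 1.57% in MPP8 and 2.76% in PPHLN1 cells. Any part of gene position in these calls was not tested. The PSMB9 span encloses TAP1 with 0 exon bases shared. PSMB8 and PSMB9 share 139 exon bases on opposite strands, 4.64% of the PSMB8 exons. The libraries keep strand, per the labels, but the use of strand in counting is not stated.

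Within 50 kb of a member the table held 40 other genes, 35 of them tested, and PSMB8-AS1 was the only one called, in PPHLN1 cells. There 2.76% of all tested genes were called higher, so 1 among 35 is near that share. It was 1.57% to 2.13% in the other knockdowns. PSMB8-AS1 (chr6:32844086-32846495, +) is an RNA antisense to PSMB8 that covers 618 of its exon bases, 20.6% of them. Over the libraries in each group mean (2 of 3 for TASOR2) it had 1 read in TASOR cells, 8 to 17 in TASOR2, 7 to 11 in MPP8 and 13 to 23 in PPHLN1 cells, against 2 in untransduced and 1 in sgAAVS1 cells. The ranges are the totals that the deposited means allow. Its means in TASOR2 and MPP8 cells were under 0, so it could not be called there. The ratio of TASOR2 to sgAAVS1 was 12.7 at 8 reads (exact 95% counting interval 1.7 to 564) and 27.0 at 17 reads (4.23 to 1130), and that of MPP8 was 11.0 at 7 reads (1.41 to 495) and 17.3 at 11 reads (2.51 to 743). The ratio of PPHLN1 to sgAAVS1 was 20.3 at 13 reads (3.05 to 862) and 35.9 at 23 reads (5.83 to 1480). Reads of the antisense gene and of PSMB8, PSMB9 or TAP1 may fall in each other's rows if strand was not used.

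**Figure D4:**
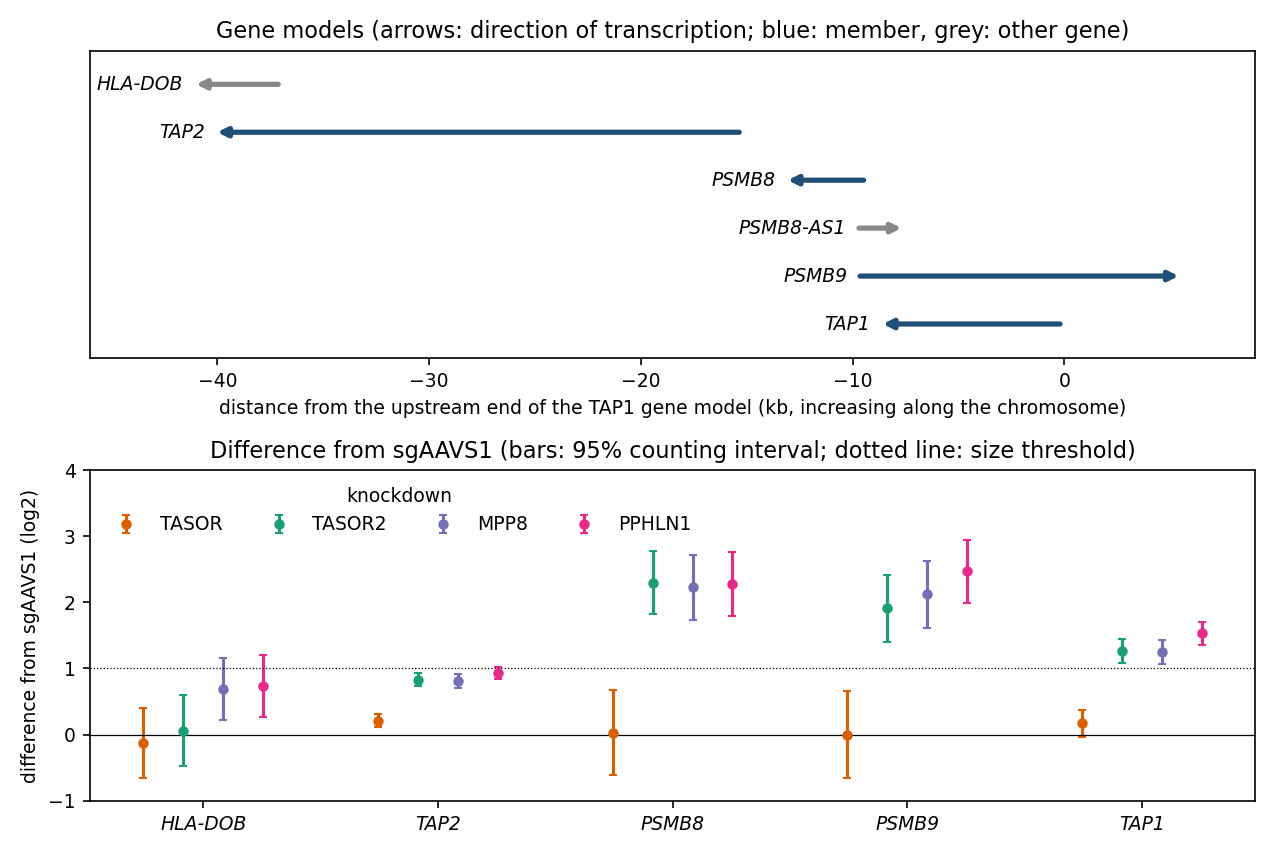
Top, the gene models around TAP1 as arrows in the direction of transcription, by distance from the upstream end of TAP1 in kb. Bottom, the log2 difference from sgAAVS1 (y axis) of the members among them and of HLA-DOB in the 4 knockdowns, with 95% counting intervals. PSMB8, PSMB9 and TAP1 lie above the dotted size threshold in TASOR2, MPP8 and PPHLN1 cells, and TAP2 just under it; PSMB8-AS1 is mapped and, with 1 read in sgAAVS1 cells, has no point.

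Of 41 other proteasome genes, none was called in any knockdown in either direction: 3 constitutive catalytic subunits, 11 other subunits of the 20S core, 7 assembly factors and other activators and 20 subunits of the 19S cap that recognises ubiquitin chains. Of all tested genes, 1.57% to 2.76% were called higher in a knockdown and 0.268% to 1.98% lower. A count of none among 41 is near that share. The differences of the 41 genes from sgAAVS1 ran from -0.06 to 0.20 in TASOR, from -0.09 to 0.54 in TASOR2, from 0.02 to 0.22 in MPP8 and from 0.06 to 0.29 in PPHLN1 cells. Their medians were 0.06, 0.14, 0.14 and 0.15. The highest in TASOR2 cells was PSMD12, a 19S subunit, under the size threshold and named here after its value was seen.

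**Figure D5:**
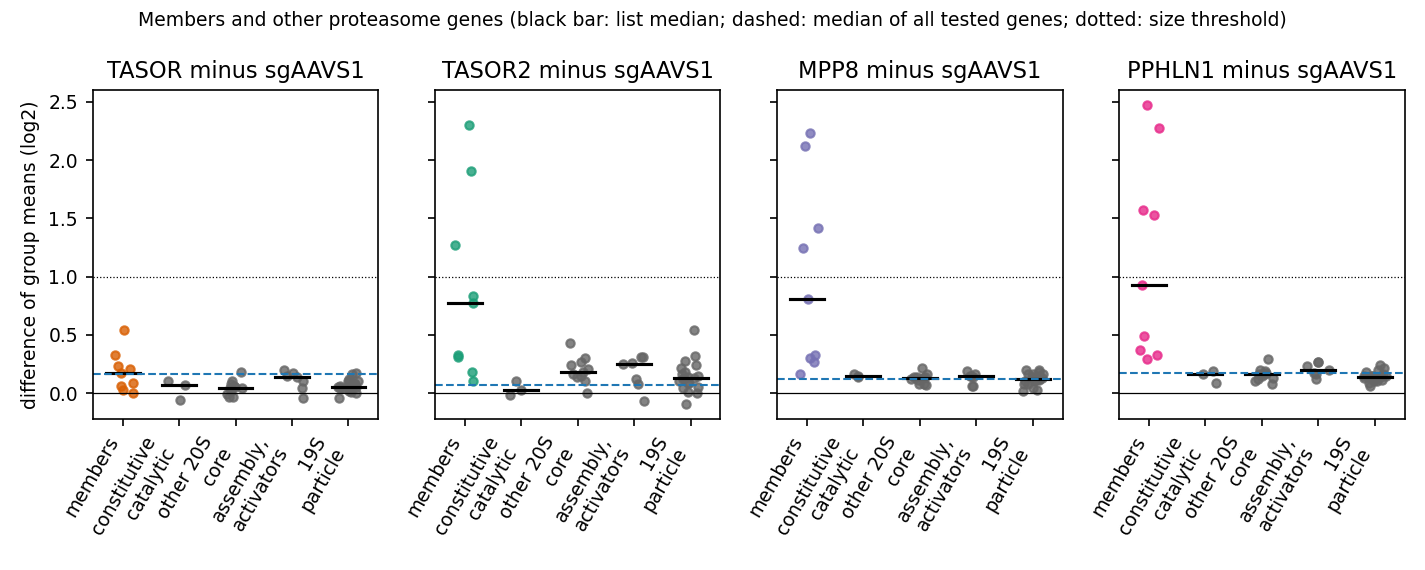
Log2 difference from sgAAVS1 (y axis) of the 9 members (coloured) and of 4 lists of other proteasome genes (grey), 1 panel a knockdown. Black bars are list medians, the dashed line is the median of all tested genes and the dotted line the size threshold. In TASOR2, MPP8 and PPHLN1 cells the members reach 2.30, 2.23 and 2.47, and no other proteasome gene exceeds 0.54, 0.22 and 0.29.

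The class I molecules that receive the peptides were examined with the trimming enzymes and loading chaperones, of which 13 of 17 genes were tested. None was called in TASOR or TASOR2 cells, and 2 were called higher in MPP8 and in PPHLN1 cells, HLA-B and HLA-C, with none lower. Of all tested genes 1.57% were called higher in MPP8 and 2.76% in PPHLN1 cells. In TASOR2 cells HLA-B differed from sgAAVS1 by 0.87 ± 0.44 and HLA-C by 0.79 ± 0.27, under the size threshold. The largest difference there was 0.99, in the trimming enzyme ERAP2 (4.11, against 3.63 in untransduced and 3.12 in sgAAVS1 cells). ERAP2 was named after its value was seen. HLA-B had a log2 mean of 2.23 in TASOR, 2.99 in TASOR2, 3.28 in MPP8 and 3.49 in PPHLN1 cells, against 2.21 in untransduced and 2.12 in sgAAVS1 cells. HLA-C had 3.51, 4.32, 4.64 and 4.77 in the 4 knockdowns, against 3.52 in untransduced and 3.53 in sgAAVS1 cells. The HLA-C row of the table spans HLA-B, and the sequences are alike, so reads may be shared. B2M, the light chain of class I, lay at 6.63 to 6.82 in the knockdowns, against 6.59 in untransduced and 6.64 in sgAAVS1 cells. The list median was 0.04, 0.22, 0.18 and 0.20 in TASOR, TASOR2, MPP8 and PPHLN1 cells.

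No known transcriptional regulator of the members was called among 16 tested of 18. Of all tested genes, 1.57% to 2.76% were called higher in a knockdown and 0.268% to 1.98% lower. A count of none among 16 is near that share. IRF1, which binds the interferon response element, had a log2 mean of 5.77, 5.49, 5.79 and 5.93 in TASOR, TASOR2, MPP8 and PPHLN1 cells, against 5.69 in untransduced and 5.61 in sgAAVS1 cells. NLRC5, a transactivator of class I genes, was under 0 on the log2 scale in every group and was not tested. Its log2 mean was -2.37 in TASOR, -1.05 in TASOR2, -0.77 in MPP8 and -0.78 in PPHLN1 cells. It was -1.39 in untransduced and -1.97 in sgAAVS1 cells, and few reads stand behind such values. IRF1 and NLRC5 were named after their values were seen. The list median was 0.17 in TASOR, 0.16 in TASOR2, 0.12 in MPP8 and 0.21 in PPHLN1 cells.

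Lymphoid and antigen-presenting cells carry these genes at high levels, so 10 of their markers were read in the same groups. Their summed level was 82.8 RPM in TASOR, 56.6 in TASOR2, 80.2 in MPP8 and 79.4 in PPHLN1 cells, against 67.9 in untransduced and 66.9 in sgAAVS1 cells. Against sgAAVS1, 1 marker of 7 tested was called, CD79A of B cells, higher in PPHLN1 cells (log2 mean 0.51, against -1.19 in sgAAVS1 cells, difference 1.70 ± 1.22). There 2.76% of all tested genes were called higher. Against TASOR cells, ITGAM was called lower in TASOR2 cells (difference -1.06 ± 0.25). CD14, of monocytes, was called lower in MPP8 and PPHLN1 cells than in TASOR cells (-1.64 and -2.15, against 0.20), and had -0.56 in sgAAVS1 cells. Of all tested genes, 5.11% were called lower than in TASOR cells in TASOR2, 1.0% in MPP8 and 0.943% in PPHLN1 cells. CD14 and ITGAM were named after their values were seen. MS4A1 had 0 reads in all 6 groups, and 4 to 6 of the 10 markers had a log2 mean below 0 in each group. The part of other cells in the members' values was not tested.

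Across the 6 group means, PSMB8, PSMB9 and TAP1 varied together, with a Pearson r of 0.99 for each pair, and TAP2 followed TAP1 with r of 0.99. PSMB10 was less like PSMB8, at 0.73. TAPBPL was closest to PSME1, at 0.99. With 6 means, of which 3 are high for many genes, these values describe the means and carry no test.

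Among 2833 other genes whose means span at least 1 log2 unit, the 3 most like PSMB8 were DDX60L (r 0.994), IFIH1 (0.992) and CTC-471J1.2 (0.992). IFIH1 encodes MDA5, a sensor of double-stranded RNA, and its log2 mean was 2.84 in TASOR, 5.39 in TASOR2, 5.04 in MPP8 and 5.40 in PPHLN1 cells, against 3.16 in untransduced and 2.64 in sgAAVS1 cells. Those most like PSMB9 were the zinc finger gene ZNF223 (0.991), HLA-C (0.989) and HLA-B (0.989). Those most like TAP1 were APOL2 (0.992), GIMAP2 (0.991) and SP110 (0.991). Those most like TAPBPL were ZNF528-AS1 (0.996), ZNF404 (0.995) and APOL1 (0.989). ZNF528-AS1 had 2.53 in TASOR, 2.73 in TASOR2, 4.48 in MPP8 and 4.80 in PPHLN1 cells, against 1.43 and 1.27 in untransduced and sgAAVS1 cells, a pattern in which TASOR and TASOR2 lie between the controls and the other knockdowns, as for TAPBPL. From 22 to 44 of the 2833 genes reached r above 0.95 with each of these members.

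Among all tested genes, 76 (0.462%) were called higher in TASOR2, MPP8 and PPHLN1 cells alike, and 57 of them (0.347%) were not called in TASOR cells. PSMB8, PSMB9 and TAP1 are 3 of these 57.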

How the data were processed

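Reads were handled with cutadapt and Bowtie2 on hg38, per the submitters' processing notes, which as seen here name no version or counter and no use of strand. The authors deposited 1 table in which, per the file headers and values, the untransduced column is a mean log2 value and the 5 other columns are that group's mean log2 divided by it. These quotients, deposited by the authors, are not fold changes; each was multiplied back to the group mean log2 value. All low values tested were means of log2 whole reads (100% in each column, tolerance 1e-05), with 0 reads set to 0.9 reads, from which depth was taken. The steps showed 3 libraries behind the sgAAVS1 mean and 2 behind each other mean. For TASOR2 the labels list 3, and which 2 entered is not stated.

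The table holds group means only, so the planned rule of size took the place of a test over samples. The counting interval is Poisson error at the recovered depth. Genes entered when 1 of the 6 means was above 0, and 87 rows that repeat a symbol were dropped. The rule was run on simulated PPHLN1 and sgAAVS1 means with Poisson error only and 200 genes raised by 1.5 or 2.0 log2 units. Of the raised genes 100% were called, and of the unchanged genes 0.314%. The interval held the set difference for 95.3% of genes with an sgAAVS1 mean above 0. Since the simulation shares the error model of the interval and has no spread between guides, it cannot show how the rule does under such spread. The 9 members and the lists were chosen with earlier results of these data known. Named genes were the members, PSMB5 to PSMB7, up to 6 called genes of each other list, called neighbours within 50 kb, and for members spanning at least 1 log2 unit the 3 genes most like them. Exon overlaps used GENCODE 29, promoters RefSeq (GRCh38.p14), with all 9 members matched in both. Python 3.11.15, numpy 2.4.6, pandas 2.3.3, scipy 1.17.1 and statsmodels 0.14.6 were used. Alternatives were other scalings, filters, size thresholds, a pseudocount of 1, removal of a GC trend and untransduced cells as control. Calls against both controls were added after the data were seen.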

Additional observations from a re-analysis of the deposited data

How the results depend on the processing

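With a size threshold of 1.5-fold, TASOR2 cells had 5 members called higher than sgAAVS1 cells (TAP2 and TAPBPL added), against 5.01% of tested genes. MPP8 cells then had 5 members called higher than TASOR cells, against 1.47% of tested genes. With a threshold of 1.5 log2 units, MPP8 cells had 2 members called higher than sgAAVS1 cells, where 0.773% of tested genes were. PPHLN1 cells then had 2 called higher than TASOR cells, where 0.663% of tested genes were. Every other alternative kept each count of members within 1.5 times, and TASOR and untransduced cells had 0 under all of them. Of 504 alternative values of single members, 448 moved by less than counting error, 56 moved further and 0 reversed a called value; among values not called against sgAAVS1, the sign turned 13 times in TASOR cells (PSMB8, PSME1, TAP1 and TAPBP, down to -0.24), once in TASOR2 cells (TAPBP, -0.03) and 2 times in untransduced cells (PSMB8 and TAPBPL). The TAPBPL call in PPHLN1 against TASOR cells was lost with a pseudocount of 1 and with the GC trend removed, which left 3 members. Over all tested genes scaling shifted the split of higher and lower calls against sgAAVS1: TASOR had 305 higher and 51 lower as deposited, 195 and 90 with centred medians and 131 and 132 with quantile normalization. For PPHLN1 these were 453 and 98, 335 and 145, and 275 and 182, for MPP8 258 and 44, 204 and 77, and 186 and 81, and for TASOR2 350 and 326, 308 and 396, and 373 and 260. No paired analysis was possible because the table holds group means only, and for the same reason leaving out a library was not run. Depth limits PSMB8, PSMB9 and TAPBPL, with under 90 reads per library.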
